A study of Mus musculus with 9 samples.

Results

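The genes described here are the semaphorins and ephrins, which are guidance ligands, and the plexins, neuropilins and Eph receptors, which bind them. They were picked by gene symbol, as genes named Sema, Plxn, Efna, Efnb, Epha or Ephb with a number or letter, plus Nrp1 and Nrp2, and the rule sets no threshold on a measured value. They numbered 52 of the 19938 genes measured, 28 ligands and 24 receptors, read by 56 probe sets, and the brightest probe set was kept for the 4 genes that had more than 1. Expression was measured in mouse pluripotent stem cells on 9 one-colour microarrays, 3 per culture group. Epiblast stem cells (EpiSCs), which resemble the primed epiblast after implantation, were of strain CD1 and grew in one of 2 media, CHIR99021 (3 µM) with XAV939 (2 µM), or FGF2 (10 ng/ml) with activin (10 ng/ml). Embryonic stem cells (ESCs), which resemble the naive epiblast of the blastocyst, were of strain 129 and grew in 2i, by common usage CHIR99021 (3 µM) with PD0325901 (1 µM). CHIR99021 inhibits GSK3 and so stabilises beta-catenin, XAV939 inhibits tankyrase and so stabilises Axin, which promotes beta-catenin breakdown, and PD0325901 inhibits MEK and so blocks ERK signalling. All groups shared a serum medium with 10% fetal bovine serum. The labels list the doses for all samples together, call the tissue of all 9 samples embryonic stem cells, and name neither a cell line nor a passage. Strain and PD0325901 both go with cell type, so in each comparison against ESCs cell state, strain and the MEK inhibitor cannot be told apart. Nor can XAV939 be told apart from these in CHIR/XAV EpiSCs, or the lack of CHIR99021 and the presence of FGF2 and activin in FGF2/activin EpiSCs.

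Semaphorins and ephrins act as secreted or contact cues and steer where cells and growth cones move by remodelling their cytoskeleton. Semaphorins of class 3 are secreted and most of them need a neuropilin, Nrp1 or Nrp2, as the binding subunit and an A-type plexin as the signalling subunit. Semaphorins of classes 4, 5 and 6 span the membrane, Sema7a is held by a lipid anchor, and these bind plexins directly. Ephrin-A proteins are lipid-anchored and bind mostly EphA receptor tyrosine kinases, ephrin-B proteins span the membrane and bind mostly EphB receptors, and both sides of the contact can signal. In early mouse development these families are known for work in gastrulation, somite boundaries, vessel formation and axon guidance.

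Values are log2 expression as deposited, so a difference of 1 is 2-fold. Levels of different genes are not comparable, since each probe set responds differently. Array medians lay between 5.57 and 5.65, and arrays of one group correlated at 0.996 to 0.998 across genes, which are not independent replicates. No detection calls were used here, so a low value cannot be told from background, and the change of a gene that is dim in one group is understated. Of the 52 genes 17 had a mean under 5.28, the level below which 40% of all genes lie. Markers followed the labels: all 10 naive markers were lower in both EpiSC groups, with a summed level (on the linear scale) of 435 to 452 in CHIR/XAV EpiSCs and 444 to 475 in FGF2/activin EpiSCs, against 17040 to 18179 in ESCs. Of 8 primed markers 8 were higher in CHIR/XAV and 7 in FGF2/activin EpiSCs. Whether replicate arrays stand for separate cultures is not stated in the labels, and the p-values therefore reflect array-to-array spread, which may be technical. In such bulk RNA fewer expressing cells and less RNA per cell cannot be told apart.

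The comparisons against ESCs ask how primed cells differ from naive ones of another strain and medium. The comparison of the EpiSC groups asks how the small-molecule culture differs from the growth-factor culture. There CHIR99021, XAV939, FGF2 and activin all change together and cannot be told apart. In CHIR/XAV EpiSCs against ESCs 24 of the 52 genes were higher and 11 lower (limma, Benjamini-Hochberg adjusted p under 0.05 over all genes), while 24.7% of all genes were higher and 22.1% lower. In FGF2/activin EpiSCs against ESCs 28 were higher and 14 lower, against 27.8% and 33.5% of all genes. At 2-fold or more, 9 of the 52 were higher and 4 lower in CHIR/XAV EpiSCs, where 5.03% and 3.30% of all genes were, and 9 were higher and 1 lower in FGF2/activin EpiSCs, where 6.66% and 3.45% of all genes were. Between the EpiSC groups 16 were higher and 17 lower in CHIR/XAV, against 20.5% and 21.1% of all genes, and 3 were higher and 7 lower at 2-fold or more, against 1.62% and 2.50%. The median change of the 52 was 0.14, 0.25 and 0.05 in these comparisons in turn, beside -0.03, -0.08 and 0.05 over all genes. The split of all calls depends on the scaling: 52.7% of calls in CHIR/XAV and 45.3% in FGF2/activin EpiSCs against ESCs were higher as deposited, and 35% in each after centring arrays on the median gene, which moved the median change to -0.13 and -0.16. Of the 110 called changes of these 52 genes, 23 lost their call under at least one alternative other than the test against 1.5-fold, and none of those exceeded 0.345 in size. Smaller changes are therefore given as values.

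**Figure D1:**
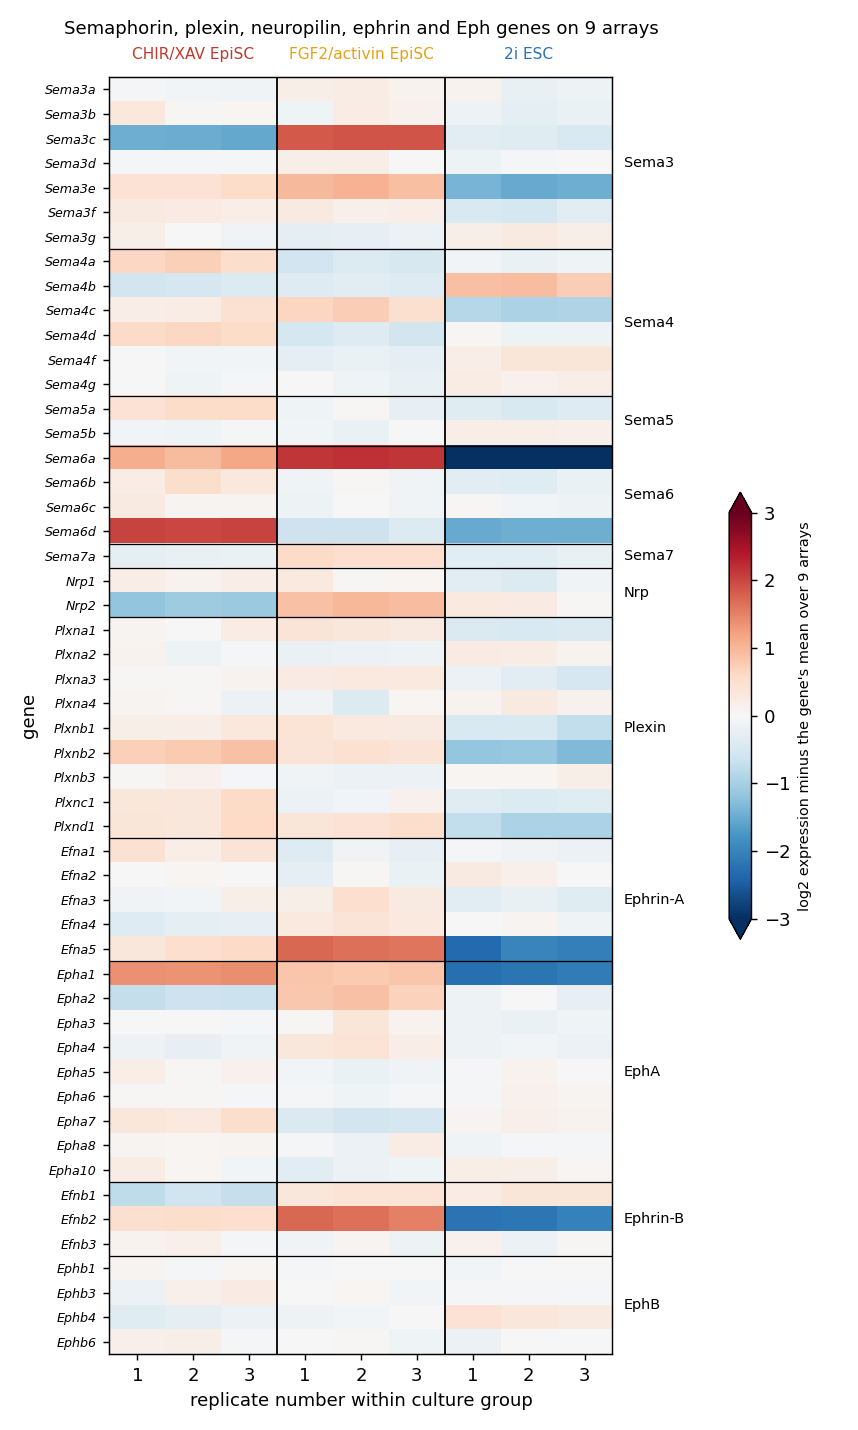
Heat map of log2 expression minus each gene's mean over the 9 arrays, with genes in rows by family and arrays in columns by culture group (red higher, blue lower, colours capped at 3 in either direction). Sema6a, Efna5, Efnb2 and Epha1 are higher in both EpiSC groups, whereas Sema3c, Nrp2 and Sema6d separate the EpiSC groups from each other.

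Among the 7 class 3 semaphorins, the secreted ligands, 3 were higher and 1 lower in CHIR/XAV and 6 higher and 1 lower in FGF2/activin EpiSCs, each set against ESCs, and Sema3c and Sema3e were the ones past 2-fold. The 6 became 3 without FGF2/activin replicate 2, without ESC replicate 2 or after centring on the median gene, each of which ended the calls of Sema3a, Sema3b and Sema3d. As deposited, 57.1% of the 7 were called in CHIR/XAV and 100% in FGF2/activin EpiSCs, beside 46.7% and 61.3% of all genes. Sema3c, a ligand of both neuropilins known for heart outflow tract development (chromosome 5), read 4.99, 4.96 and 4.92 in CHIR/XAV EpiSCs, 8.30, 8.35 and 8.33 in FGF2/activin EpiSCs, and 6.13, 6.09 and 5.99 in ESCs. The 3 groups were separate, with FGF2/activin highest and CHIR/XAV lowest. It fell by 1.11 (SE 0.06, adjusted p = 2.91e-09) in CHIR/XAV EpiSCs and rose by 2.25 (SE 0.06, adjusted p = 1.01e-12) in FGF2/activin EpiSCs against ESCs. Between the EpiSC groups it was 10.3-fold lower in CHIR/XAV (log2 change -3.37, SE 0.06, adjusted p = 9.39e-14), the largest change of the 52 in that comparison. Sema3e, which signals through plexin D1 without a neuropilin, read 8.57, 8.57 and 8.69 in CHIR/XAV EpiSCs, 9.11, 9.18 and 9.03 in FGF2/activin EpiSCs, and 6.74, 6.62 and 6.67 in ESCs. All EpiSC arrays lay above all ESC arrays, and FGF2/activin above CHIR/XAV. Its rise against ESCs was 1.93 (SE 0.07, adjusted p = 1.73e-11) in CHIR/XAV and 2.43 (SE 0.07, adjusted p = 1.06e-12) in FGF2/activin EpiSCs. Sema3f, a ligand of Nrp2, averaged 6.37 ± 0.04 in CHIR/XAV EpiSCs and 6.34 ± 0.06 in FGF2/activin EpiSCs, against 5.69 ± 0.10 in ESCs (SD, n = 3 each), a rise of 0.68 and 0.65. Sema3a, Sema3b, Sema3d and Sema3g had means between 4.69 and 5.38 in all groups and changed by at most 0.44 in either direction. In the RefSeq gene order Sema3d and Sema3a are neighbours on chromosome 5, with 3 coding genes between Sema3a and Sema3e and 15 between Sema3e and Sema3c. Between the EpiSC groups Sema3d and Sema3a differed by -0.17 and -0.24, and whether either is called depends on the setting.

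Class 4 semaphorins, which span the membrane and mostly bind B-type plexins, went in different directions. Of the 6, 3 were higher and 3 lower in CHIR/XAV and 1 was higher and 5 lower in FGF2/activin EpiSCs, each set against ESCs. All 6 were thus called in both, beside 46.7% and 61.3% of all genes. Sema4b (chromosome 7) read 7.33, 7.37 and 7.48 in CHIR/XAV EpiSCs, 7.50, 7.56 and 7.50 in FGF2/activin EpiSCs, and 8.77, 8.80 and 8.62 in ESCs. It was the one gene of the 52 that was lower by 2-fold or more in FGF2/activin EpiSCs, and every EpiSC array lay below every ESC array. The fall was 1.34 (SE 0.07, adjusted p = 1.12e-09) in CHIR/XAV and 1.21 (SE 0.07, adjusted p = 2.56e-09) in FGF2/activin EpiSCs (log2 changes -1.34 and -1.21). Sema4c, a ligand of plexin B2 (chromosome 1), read 6.42, 6.45 and 6.67 in CHIR/XAV EpiSCs, 6.87, 6.96 and 6.71 in FGF2/activin EpiSCs, and 5.38, 5.27 and 5.32 in ESCs. Both EpiSC groups lay above ESCs without overlap, by 1.19 (SE 0.08, adjusted p = 2.84e-08) in CHIR/XAV and 1.52 (SE 0.08, adjusted p = 1.48e-09) in FGF2/activin.

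Sema4d and Sema4a were the class 4 genes that differed by 2-fold or more between the EpiSC groups, where Sema4c had a change of -0.33 (SE 0.08, adjusted p = 0.00607) and Sema4f one of 0.19. Sema4d, the ligand of plexin B1 (chromosome 13), read 8.05, 8.11 and 8.03 in CHIR/XAV EpiSCs, 6.95, 7.09 and 6.93 in FGF2/activin EpiSCs, and 7.52, 7.32 and 7.34 in ESCs. The ESC arrays lay between the EpiSC groups and overlapped neither. Its change between the EpiSC groups was 1.07 (SE 0.07, adjusted p = 5.07e-08), with 0.67 and -0.41 against ESCs in CHIR/XAV and FGF2/activin. The dimmer of its probe sets differed by 0.21 between the EpiSC groups and by 0.00 and -0.21 against ESCs, so the size rests on the brighter one. Sema4a, known mainly from immune cells (chromosome 3), read 5.81, 5.90 and 5.70 in CHIR/XAV EpiSCs, 4.60, 4.76 and 4.70 in FGF2/activin EpiSCs, and 5.10, 4.97 and 5.04 in ESCs. It showed the same order at dim levels, and differed between the EpiSC groups by 1.11 (SE 0.07, adjusted p = 3.02e-08). Sema4f was lower than in ESCs by 0.37 in CHIR/XAV and 0.56 in FGF2/activin EpiSCs (log2 changes -0.37 and -0.56).

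Against ESCs the largest change of the 52 in each EpiSC group was that of Sema6a, in class 6, the transmembrane semaphorins that bind A-type plexins and can also act as receptors. Sema6a, Sema6b and Sema6d were higher in both EpiSC groups. Sema6c was also called in CHIR/XAV EpiSCs, by 0.21 (limma, adjusted p = 0.0379). That call was lost in 7 alternatives besides the test against 1.5-fold (adjusted p from 0.054 to 0.23). Of the 7, 3 left out 1 array (CHIR/XAV replicate 1, ESC replicate 2 or ESC replicate 3). Sema6a, a ligand of plexins A2 and A4 (chromosome 18), read 9.76, 9.63 and 9.84 in CHIR/XAV EpiSCs, 10.81, 10.86 and 10.82 in FGF2/activin EpiSCs, and 5.45, 5.37 and 5.57 in ESCs. It was 19.4-fold higher in CHIR/XAV EpiSCs (log2 change 4.28, SE 0.07, adjusted p = 1.49e-14) and 41.3-fold higher in FGF2/activin EpiSCs (5.37, SE 0.07, adjusted p = 2.43e-15), each relative to ESCs. FGF2/activin also exceeded CHIR/XAV on every array, the change of CHIR/XAV being -1.09 (SE 0.07, adjusted p = 4.47e-08). Sema6d, a ligand of plexin A1 known from heart development (chromosome 2), read 8.24, 8.21 and 8.23 in CHIR/XAV EpiSCs, 5.59, 5.59 and 5.79 in FGF2/activin EpiSCs, and 4.70, 4.75 and 4.73 in ESCs. The CHIR/XAV arrays stood far above the rest. Sema6d was 11.3-fold higher in CHIR/XAV EpiSCs than in ESCs (log2 change 3.50, SE 0.07, adjusted p = 5.36e-14), 1.91-fold higher in FGF2/activin EpiSCs than in the ESCs (0.93, SE 0.07, adjusted p = 4.31e-08), and 5.94-fold higher in CHIR/XAV than in FGF2/activin EpiSCs (2.57, SE 0.07, adjusted p = 3.53e-12). Sema6b averaged 6.05 ± 0.15 in CHIR/XAV EpiSCs, 5.64 ± 0.08 in FGF2/activin EpiSCs and 5.39 ± 0.08 in ESCs (SD, n = 3 each), a rise of 0.66 in CHIR/XAV. The call of Sema6b in FGF2/activin EpiSCs, at 0.24, was lost after centring on the median gene and without ESC replicate 1, ESC replicate 2 or FGF2/activin replicate 2. The group means of Sema6c were 5.53, 5.29 and 5.32.

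Classes 5 and 7 changed less. Sema5a, which carries thrombospondin-type repeats, averaged 6.15 ± 0.06 in CHIR/XAV EpiSCs, 5.53 ± 0.15 in FGF2/activin EpiSCs and 5.23 ± 0.05 in ESCs (SD, n = 3 each), a rise of 0.92 in CHIR/XAV. It lies on chromosome 15, where the 40 nearest measured genes had a median change of 0.06 in that comparison. Sema7a, the ligand of plexin C1, averaged 5.19 ± 0.04 in CHIR/XAV EpiSCs, 5.95 ± 0.03 in FGF2/activin EpiSCs and 5.13 ± 0.06 in ESCs (SD, n = 3 each). It rose by 0.82 (SE 0.06, adjusted p = 6.14e-08) in FGF2/activin EpiSCs, and the change of CHIR/XAV against FGF2/activin was -0.76 (SE 0.06, adjusted p = 3.35e-07). Sema5b had a change of -0.27 in both EpiSC groups against ESCs.

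**Figure D2:**
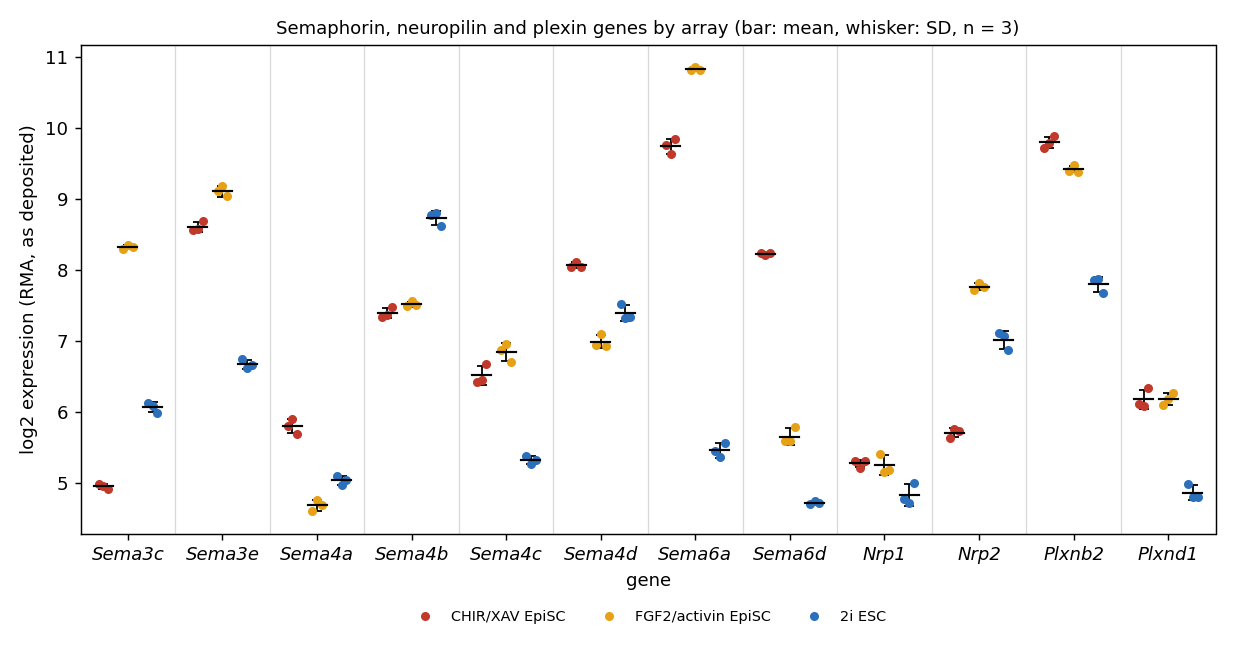
Log2 expression on each array (points) with the mean (bar) and SD (whisker, n = 3) for the semaphorin, neuropilin and plexin genes that changed at least 2-fold in any comparison, and Nrp1. Sema6a averages 9.74 in CHIR/XAV and 10.83 in FGF2/activin EpiSCs against 5.46 in ESCs, and Sema3c and Sema6d show opposite orders in the EpiSC groups.

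The neuropilins, binding subunits for class 3 semaphorins and for VEGF, differed from each other. Nrp2 (chromosome 1) read 5.64, 5.76 and 5.73 in CHIR/XAV EpiSCs, 7.71, 7.82 and 7.76 in FGF2/activin EpiSCs, and 7.11, 7.07 and 6.87 in ESCs. As with its ligand Sema3c, FGF2/activin was highest, CHIR/XAV lowest and no groups overlapped. Nrp2 was 4.16-fold lower in CHIR/XAV than in FGF2/activin EpiSCs (log2 change -2.05, SE 0.08, adjusted p = 6.7e-11), with -1.31 (SE 0.08) and 0.75 (SE 0.08) against ESCs in CHIR/XAV and FGF2/activin. Nrp1 (chromosome 8) was dim, at 5.31, 5.21 and 5.31 in CHIR/XAV EpiSCs, 5.41, 5.16 and 5.18 in FGF2/activin EpiSCs, and 4.772, 4.717 and 5.005 in ESCs. The EpiSC groups overlapped each other and both lay above ESCs, by 0.45 (SE 0.09, adjusted p = 0.000802) in CHIR/XAV and 0.42 (SE 0.09, adjusted p = 0.0011) in FGF2/activin.

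Of the 9 plexins, the signalling receptors for semaphorins, 6 were higher and 1 lower in CHIR/XAV EpiSCs against ESCs, and 6 were higher and 3 lower in FGF2/activin EpiSCs. That is 77.8% and 100% called, beside 46.7% and 61.3% of all genes. Plxnb2, the receptor of Sema4c (chromosome 15), read 9.72, 9.79 and 9.88 in CHIR/XAV EpiSCs, 9.40, 9.47 and 9.38 in FGF2/activin EpiSCs, and 7.85, 7.87 and 7.67 in ESCs. It rose by 2.00 (SE 0.07, adjusted p = 2.39e-11) in CHIR/XAV and 1.62 (SE 0.07, adjusted p = 1.69e-10) in FGF2/activin EpiSCs. The 40 measured genes nearest to it had a median change of 0.50 in CHIR/XAV and 0.06 in FGF2/activin EpiSCs against ESCs, and of 0.31 between the EpiSC groups, where Plxnb2 itself differed by 0.38. The part of the neighbourhood in that difference was not tested. Plxnd1, the receptor of Sema3e (chromosome 6), read 6.11, 6.09 and 6.34 in CHIR/XAV EpiSCs, 6.10, 6.18 and 6.27 in FGF2/activin EpiSCs, and 4.99, 4.81 and 4.80 in ESCs. Both EpiSC groups overlapped and lay above ESCs, by 1.31 (SE 0.08, adjusted p = 1.09e-08) in CHIR/XAV and 1.32 (SE 0.08, adjusted p = 8.14e-09) in FGF2/activin. Plxna1, a partner of the neuropilins and receptor of Sema6d, rose by 0.55 in CHIR/XAV and 0.79 in FGF2/activin EpiSCs. Plxnb1 rose by 0.78 and 0.87, Plxna3 by 0.41 and 0.63, and Plxnc1 by 0.80 and 0.34, in the same order of groups. Plxna2 and Plxna4, the receptors of Sema6a, had negative changes. Plxna2 had -0.21 (limma, adjusted p = 0.0368) in CHIR/XAV and -0.36 (adjusted p = 0.000977) in FGF2/activin EpiSCs. The first of these calls was lost in 8 alternatives besides the test against 1.5-fold (adjusted p up to 0.169). Among the 8 were those without ESC replicate 1 or 2, CHIR/XAV replicate 2 or 3, or FGF2/activin replicate 1. Plxna4 had -0.19 (limma, adjusted p = 0.174) in CHIR/XAV and -0.32 (adjusted p = 0.0206) in FGF2/activin EpiSCs. It was dim, with means of 5.21 in CHIR/XAV EpiSCs, 5.08 in FGF2/activin EpiSCs and 5.40 in ESCs. Its call in FGF2/activin EpiSCs was lost without FGF2/activin replicate 2 or ESC replicate 2. The 3 lower plexins in FGF2/activin EpiSCs became 1 after quantile normalization. Plxnb3 was at 4.83 in CHIR/XAV EpiSCs, 4.64 in FGF2/activin EpiSCs and 4.89 in ESCs.

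Plxnd1, Nrp1 and Efnb2 are also known from vessels, so endothelial markers were set beside them. Of 8 such markers 2 were higher in CHIR/XAV and 3 in FGF2/activin EpiSCs than in ESCs, and none was lower. The VEGF receptor gene Flt1 rose by 1.66 and 2.64 and Kdr by 0.51 and 0.64. Tek averaged 6.41 in CHIR/XAV EpiSCs, 6.66 in FGF2/activin EpiSCs and 6.34 in ESCs. It was called in FGF2/activin EpiSCs, by 0.31 (limma, adjusted p = 0.00712), and not in CHIR/XAV EpiSCs. The defining junction gene Cdh5 (VE-cadherin) averaged 4.92 ± 0.19 in CHIR/XAV EpiSCs and 4.79 ± 0.07 in FGF2/activin EpiSCs, against 4.73 ± 0.21 in ESCs (SD, n = 3 each), and Tie1 was at 4.68, 4.64 and 4.68, and neither was called. The summed level of the 8 was 346 to 367 in CHIR/XAV EpiSCs and 464 to 476 in FGF2/activin EpiSCs, against 265 to 279 in ESCs, and its part in the changes was not tested. For neural markers, other cells rich in these families, the sums were 527 to 570, 618 to 661, and 495 to 526 in the same order, with 3 of 9 higher and 2 lower in CHIR/XAV and 3 higher and 3 lower in FGF2/activin EpiSCs against ESCs. The sums for trophoblast markers were 355 to 400 in CHIR/XAV EpiSCs, 682 to 692 in FGF2/activin EpiSCs and 293 to 309 in ESCs. Of these 7 markers 3 were higher and 1 lower in CHIR/XAV and 3 higher and 2 lower in FGF2/activin EpiSCs, with Eomes, also an epiblast and mesoderm gene, at 7.43, 8.72 and 6.40 and Cdx2 at 4.90, 5.14 and 5.97. The sums for fibroblast or feeder markers were 409 to 449, 352 to 360, and 320 to 333. Of these 9 markers Thy1 alone was higher in CHIR/XAV EpiSCs (7.21, 5.70 and 5.44), Pdgfra was lower, and 4 were higher and 1 lower in FGF2/activin EpiSCs. Of all genes 46.7% were called in CHIR/XAV and 61.3% in FGF2/activin EpiSCs against ESCs. What these lists contribute to the values of the 52 genes was not tested.

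The EpiSC groups differ in drugs acting on beta-catenin, in FGF2 and in activin, and no letters were searched for the activin pathway. Because of the drugs and FGF2, promoters are shown of the 4 of the 52 genes that differed most between those groups. These are the promoters of Nrp2, Epha2, Sema3c and Sema6d. Each is the window of 250 bases before and 50 after the RefSeq transcription start (build GRCm38.p6, plus strand), and 46 of the 52 genes matched such a window. Capitals mark CTTTGAA or CTTTGAT on either strand, letters that TCF/LEF factors, the DNA-binding partners of beta-catenin, are known to read.
Nrp2, chr1:62703067-62703366: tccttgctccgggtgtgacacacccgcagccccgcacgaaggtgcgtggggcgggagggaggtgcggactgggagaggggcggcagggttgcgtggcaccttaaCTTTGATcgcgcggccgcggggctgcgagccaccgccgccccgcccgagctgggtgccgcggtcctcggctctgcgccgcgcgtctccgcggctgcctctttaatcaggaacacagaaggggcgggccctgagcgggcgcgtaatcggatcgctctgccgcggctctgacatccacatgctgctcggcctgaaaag
Epha2, chr4:141300971-141301270: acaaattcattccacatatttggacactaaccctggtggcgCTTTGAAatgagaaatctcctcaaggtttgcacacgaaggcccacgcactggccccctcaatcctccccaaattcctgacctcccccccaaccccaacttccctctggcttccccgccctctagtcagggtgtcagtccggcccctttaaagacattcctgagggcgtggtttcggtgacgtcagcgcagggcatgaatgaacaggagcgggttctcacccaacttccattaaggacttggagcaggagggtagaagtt
Sema3c, chr5:17574566-17574865: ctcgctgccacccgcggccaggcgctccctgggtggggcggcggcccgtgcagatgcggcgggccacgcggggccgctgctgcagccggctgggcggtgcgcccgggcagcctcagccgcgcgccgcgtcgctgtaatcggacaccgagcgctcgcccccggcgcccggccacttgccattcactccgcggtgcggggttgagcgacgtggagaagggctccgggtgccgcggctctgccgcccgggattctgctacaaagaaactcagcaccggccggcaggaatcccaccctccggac
Sema6d, the first of 2 windows, chr2:124089719-124090018: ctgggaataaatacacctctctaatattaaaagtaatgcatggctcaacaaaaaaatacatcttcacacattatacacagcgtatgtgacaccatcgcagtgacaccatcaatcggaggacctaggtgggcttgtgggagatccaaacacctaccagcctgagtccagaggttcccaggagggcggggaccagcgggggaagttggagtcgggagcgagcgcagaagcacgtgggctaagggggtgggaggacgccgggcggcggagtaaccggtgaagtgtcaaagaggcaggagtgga
The Nrp2 window held CTTTGAT at -146 from the start and the Epha2 window CTTTGAA at -209, and the windows of Sema3c and Sema6d held neither. Of all RefSeq windows 8.65% held one of these words, and 3 of 60 windows (5%) of the 52 genes did, those of Nrp2, Epha2 and Sema3e. The ETS word CCGGAAG was in 2 of the 60 windows (Ephb6 and Plxnb1) and in 8.86% of all, and the AP-1 word TGANTCA in 3 (Sema4c, Sema4d and Sema6b) and in 7.81% of all. Both strands were read, and a TCF/LEF word that runs on into TCA would also count as AP-1. A match describes letters and shows no binding.

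Of the 5 ephrin-A genes, lipid-anchored ligands of EphA receptors, 3 were higher in each EpiSC group than in ESCs and 1 was lower, the one in FGF2/activin EpiSCs (Efna2) losing its call without ESC replicate 1 or FGF2/activin replicate 1. In CHIR/XAV EpiSCs the call of Efna3 was at 0.30 (limma, adjusted p = 0.0195). It was lost after centring on the median gene and without CHIR/XAV replicate 3 or ESC replicate 3. As deposited, 80% of the 5 were called in each EpiSC group, beside 46.7% of all genes in CHIR/XAV and 61.3% in FGF2/activin. Efna5, known for topographic mapping of axons (chromosome 17), read 7.94, 8.12 and 8.17 in CHIR/XAV EpiSCs, 9.32, 9.25 and 9.21 in FGF2/activin EpiSCs, and 5.28, 5.62 and 5.56 in ESCs. The groups were fully separate, with FGF2/activin highest and ESCs lowest. It was 6.03-fold higher in CHIR/XAV EpiSCs (log2 change 2.59, SE 0.09, adjusted p = 1.65e-11) and 13.7-fold higher in FGF2/activin EpiSCs (3.78, SE 0.09, adjusted p = 2.48e-13), each relative to ESCs. Efna1, Efna3 and Efna4 are direct neighbours on chromosome 3, and between the EpiSC groups Efna1 was higher in CHIR/XAV while Efna3 and Efna4 were lower. Efna1 averaged 6.25 ± 0.14 in CHIR/XAV EpiSCs, 5.65 ± 0.14 in FGF2/activin EpiSCs and 5.79 ± 0.08 in ESCs (SD, n = 3 each), a change of 0.60 between the EpiSC groups (SE 0.09, adjusted p = 8.38e-05). Efna4 averaged 6.93 ± 0.06 in CHIR/XAV EpiSCs, 7.55 ± 0.05 in FGF2/activin EpiSCs and 7.23 ± 0.11 in ESCs (SD, n = 3 each), a change of -0.62 between the EpiSC groups (SE 0.07, adjusted p = 9.04e-06). Efna3 rose by 0.62 in FGF2/activin EpiSCs, and its change between the EpiSC groups was -0.32 (adjusted p = 0.0169), a call lost after quantile normalization and without CHIR/XAV replicate 1 or 2 or FGF2/activin replicate 2. Efna2 had means of 6.98, 6.82 and 7.11.

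Among the 9 EphA receptor genes 2 were higher in CHIR/XAV EpiSCs and 1 lower, and 4 higher and 2 lower in FGF2/activin EpiSCs, against ESCs. That is 33.3% called in CHIR/XAV, below the 46.7% of all genes, and 66.7% in FGF2/activin, near the 61.3% of all genes. Epha1, an epithelial member of the family (chromosome 6), read 8.65, 8.64 and 8.68 in CHIR/XAV EpiSCs, 8.12, 8.07 and 8.12 in FGF2/activin EpiSCs, and 5.02, 5.09 and 5.19 in ESCs. Here CHIR/XAV was highest and ESCs lowest, with no overlap. Epha1 was 11.8-fold higher in CHIR/XAV EpiSCs (log2 change 3.55, SE 0.06, adjusted p = 2.4e-14) and 8.02-fold higher in FGF2/activin EpiSCs (3.00, SE 0.06, adjusted p = 7.37e-14), each relative to ESCs, and the EpiSC groups differed by 0.55. Epha2, a receptor for ephrin-A ligands on many epithelia (chromosome 4), read 7.54, 7.65 and 7.61 in CHIR/XAV EpiSCs, 9.08, 9.14 and 8.94 in FGF2/activin EpiSCs, and 8.11, 8.26 and 8.02 in ESCs. Its order was that of Nrp2 and Sema3c, with CHIR/XAV lowest. The change between the EpiSC groups was -1.46 (SE 0.08, adjusted p = 3.65e-09), with -0.53 (SE 0.08) and 0.92 (SE 0.08) against ESCs in CHIR/XAV and FGF2/activin.

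Epha7 and Epha4 showed smaller differences between the EpiSC groups. Epha7 averaged 8.77 ± 0.12 in CHIR/XAV EpiSCs, 7.90 ± 0.06 in FGF2/activin EpiSCs and 8.51 ± 0.03 in ESCs (SD, n = 3 each), a change of 0.88 between the EpiSC groups (SE 0.07, adjusted p = 2.81e-07). Its difference of 0.26 between CHIR/XAV EpiSCs and ESCs lost its call after centring on the median gene (adjusted p = 0.0742). Epha4, which binds ephrins of both kinds, averaged 7.30 ± 0.06 in CHIR/XAV EpiSCs, 7.78 ± 0.11 in FGF2/activin EpiSCs and 7.33 ± 0.04 in ESCs (SD, n = 3 each), a change of -0.48 between the EpiSC groups (SE 0.07, adjusted p = 8.82e-05). Epha3, Epha5, Epha6, Epha8 and Epha10 had group means between 4.35 and 5.33, and their changes were at most 0.35 in size.

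Ephrin-B genes, transmembrane ligands of EphB receptors, numbered 3. Efnb2, known as the arterial ephrin (chromosome 8), read 8.62, 8.67 and 8.64 in CHIR/XAV EpiSCs, 9.84, 9.79 and 9.64 in FGF2/activin EpiSCs, and 5.91, 5.96 and 6.11 in ESCs. The order of groups was that of Efna5. Efnb2 was 6.27-fold higher in CHIR/XAV EpiSCs (log2 change 2.65, SE 0.08, adjusted p = 1.49e-12) and 13.6-fold higher in FGF2/activin EpiSCs (3.76, SE 0.08, adjusted p = 3.72e-14), each relative to ESCs, and its change in CHIR/XAV against FGF2/activin was -1.11 (SE 0.08, adjusted p = 3.76e-08). Efnb1, an X-linked ligand that sorts cells in mosaic embryos, read 5.20, 5.36 and 5.26 in CHIR/XAV EpiSCs, 6.29, 6.36 and 6.38 in FGF2/activin EpiSCs, and 6.18, 6.32 and 6.32 in ESCs. FGF2/activin EpiSCs and ESCs overlapped, and CHIR/XAV EpiSCs lay below both, with log2 changes of -1.001 (SE 0.07, adjusted p = 2.59e-08) against ESCs and -1.07 (SE 0.07, adjusted p = 2.71e-08) against FGF2/activin EpiSCs. The 40 measured genes nearest to Efnb1 had median changes of 0.01 and 0.03 in those comparisons. Efnb3 had group means of 5.34, 5.21 and 5.27 and was not called.

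Among the 4 EphB receptor genes Ephb4 alone was called. That is 25% in each comparison. Of all genes 46.7% were called in CHIR/XAV and 61.3% in FGF2/activin EpiSCs against ESCs, and 41.6% between the EpiSC groups. Ephb4, the main receptor of ephrin-B2 in vessels, averaged 7.59 ± 0.09 in CHIR/XAV EpiSCs and 7.80 ± 0.08 in FGF2/activin EpiSCs, against 8.22 ± 0.08 in ESCs (SD, n = 3 each). It was lower than in ESCs in both, with log2 changes of -0.63 (SE 0.07, adjusted p = 6.49e-06) in CHIR/XAV and -0.42 (SE 0.07, adjusted p = 0.000255) in FGF2/activin, opposite to its ligand gene. Between the EpiSC groups Ephb4 had a change of -0.21 (SE 0.07, limma, adjusted p = 0.0366). That call was lost after quantile normalization (adjusted p = 0.258). It was also lost without CHIR/XAV replicate 1 or 2 or FGF2/activin replicate 2 or 3. Ephb1, Ephb3 and Ephb6 were called in none of the comparisons, with changes of at most 0.14.

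**Figure D3:**
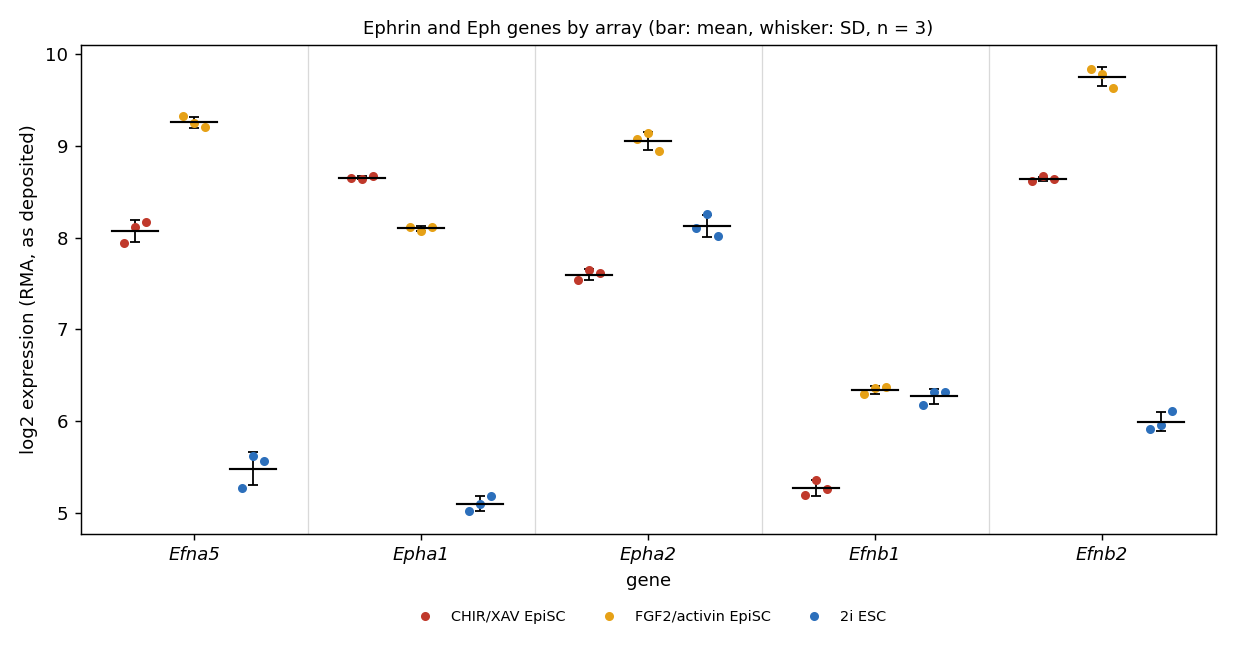
Log2 expression on each array (points) with the mean (bar) and SD (whisker, n = 3) for the ephrin and Eph genes that changed at least 2-fold in any comparison. Efna5, Efnb2 and Epha1 are above 7.9 on every EpiSC array and under 6.2 on every ESC array, while Efnb1 and Epha2 are lowest in CHIR/XAV EpiSCs.

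**Figure D4:**
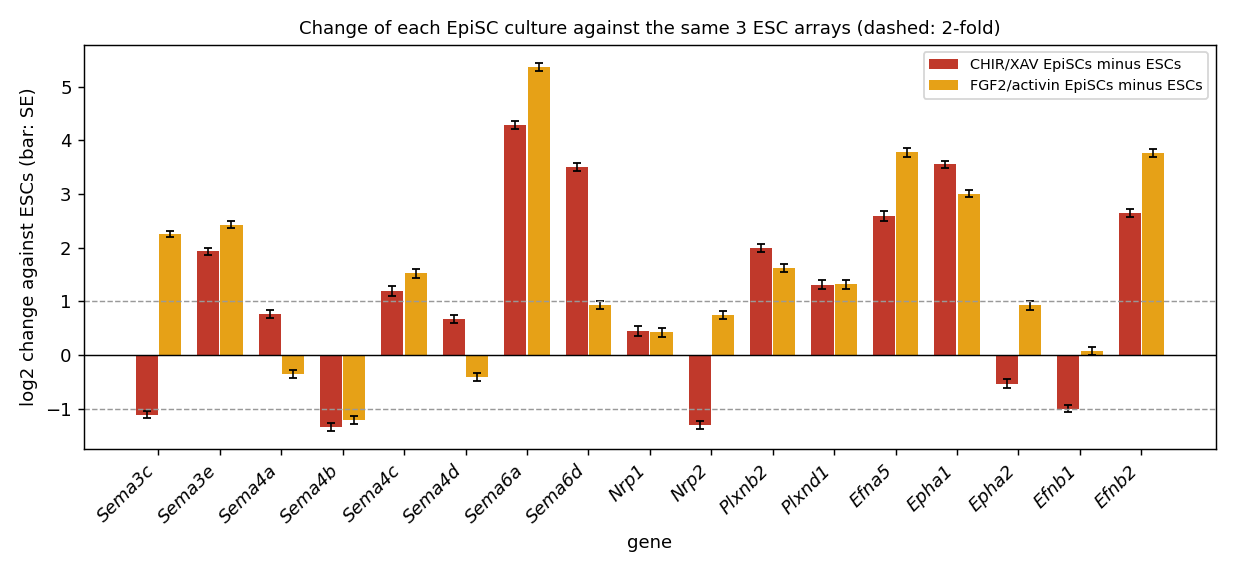
Log2 change of CHIR/XAV EpiSCs (red) and FGF2/activin EpiSCs (yellow) against the same 3 ESC arrays, with SE, for the 17 genes given by array, and dashed lines at 2-fold. Sema6a rose by 4.28 and 5.37, while Sema3c changed by -1.11 and 2.25.

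Set against each other, the EpiSC groups differed at 2-fold or more in 10 of the 52 genes (19.2%), beside 4.11% of all genes. In CHIR/XAV EpiSCs Sema6d, Sema4a and Sema4d were higher, all of them membrane semaphorins. Sema3c, Nrp2, Epha2, Efna5, Efnb2, Sema6a and Efnb1 were lower, a set with both a class 3 ligand and a neuropilin that binds it. No plexin differed by 2-fold between the EpiSC groups, the range over the 9 being -0.24 to 0.46. In 7 of the 52 genes, Sema3c, Nrp2, Epha2, Efna4, Sema4a, Sema4d and Epha7, the EpiSC groups were called in opposite directions against the shared ESC arrays and called different from each other, as were 3.22% of all genes. The ligands ranged from -3.37 to 2.57 and the receptors from -2.05 to 0.88.

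**Figure D5:**
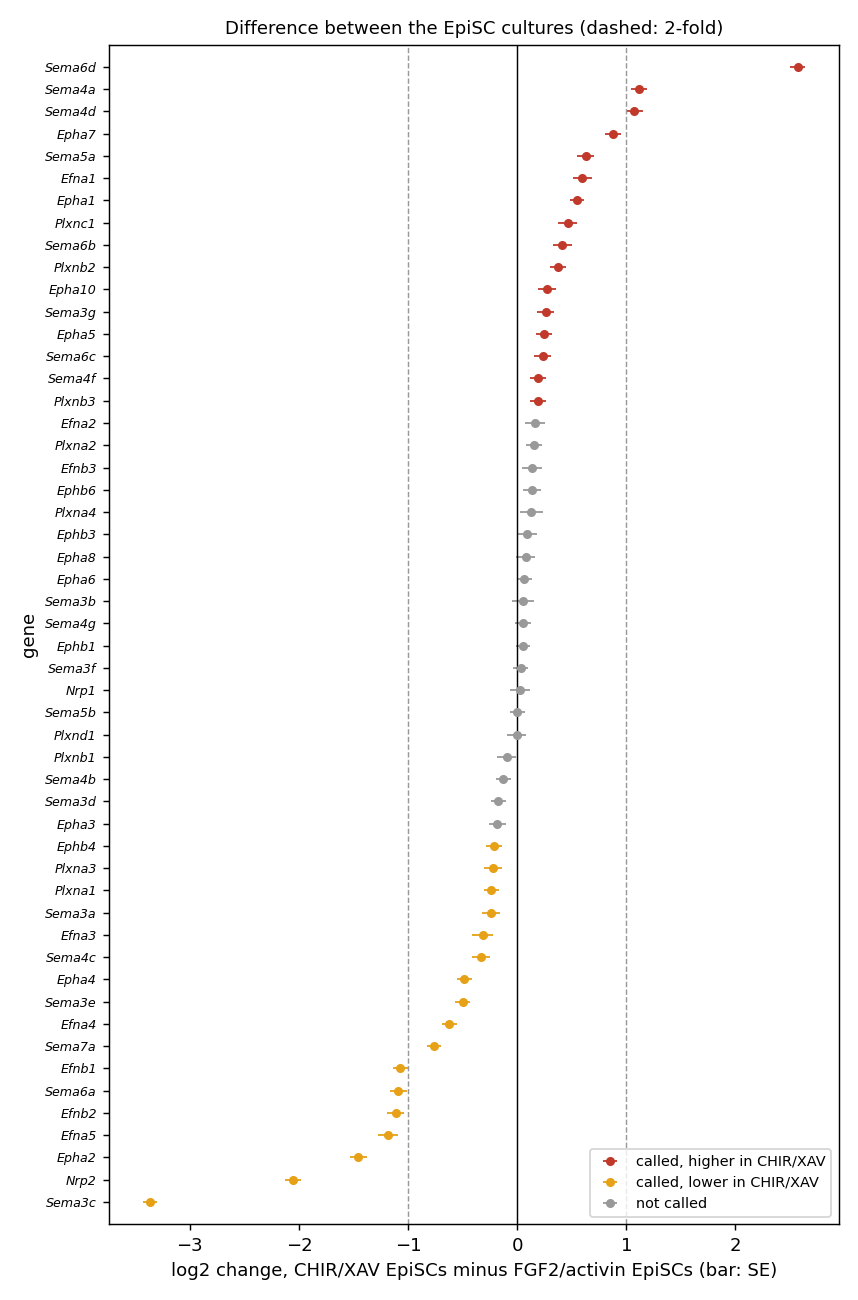
Log2 change of CHIR/XAV EpiSCs minus FGF2/activin EpiSCs for all 52 genes in order of size, with SE, coloured by call (red higher, yellow lower, grey not called) and with dashed lines at 2-fold. Sema6d (2.57) is at one end and Sema3c (-3.37) at the other.

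Genes known to act with these receptors were also counted. The first list also holds Plxdc1 and Plxdc2, which are named for a plexin-like domain, and the name is no evidence that they act with plexins. Of 36 partners and effectors of semaphorins and plexins 20 were higher and 6 lower in CHIR/XAV EpiSCs against ESCs (median change 0.39). In FGF2/activin EpiSCs 22 were higher and 6 lower against ESCs (median change 0.61). Called were thus 72.2% and 77.8% of the 36, beside 46.7% and 61.3% of all genes. Flt1 and Kdr are in this list and also among the endothelial markers above. Rnd3 rose by 1.84 in CHIR/XAV and 3.34 in FGF2/activin EpiSCs, and Nrcam, an adhesion partner of neuropilins, by 0.92 and 2.05. Plxdc2 rose by 2.40 and 2.76. Plxdc1 had changes of -1.54 and -1.42. Between the EpiSC groups 3 were higher and 17 lower in CHIR/XAV, against 20.5% and 21.1% of all genes. Rnd3 was at -1.50 and Nrcam at -1.13, while Rnd1 was at 1.31. Of 32 partners and effectors of Ephs and ephrins 13 were higher in CHIR/XAV EpiSCs and 9 lower, and 18 higher and 6 lower in FGF2/activin EpiSCs, against ESCs (median changes 0.07 and 0.28). In all, 68.8% and 75% of the 32 were called, beside 46.7% and 61.3% of all genes. Vav3, a guanine nucleotide exchange factor gene, rose by 1.43 and 2.16 and Pdzrn3, a PDZ-domain ubiquitin ligase gene, by 1.72 and 1.35. Src, the kinase that ephrin-B signalling recruits, averaged 6.40 ± 0.04 in CHIR/XAV EpiSCs, 8.37 ± 0.05 in FGF2/activin EpiSCs and 7.59 ± 0.03 in ESCs (SD, n = 3 each), a change of -1.97 between the EpiSC groups (SE 0.06, adjusted p = 1.63e-11). Between the EpiSC groups 2 of the 32 were higher and 14 lower in CHIR/XAV, against 20.5% and 21.1% of all genes.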

How the data were processed

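Total RNA of 9 samples was hybridised to a one-colour array, 3 per group, with groups and replicate numbers taken from the titles. The authors deposited log2 expression per probe set, and RMA and Partek are named in the submitters' processing notes, with versions not given in the sources available. Of 35399 probe sets, 21789 carried a single symbol in the platform annotation, and the brightest by mean was kept for each of 19938 genes. Symbols and chromosomes came from a RefSeq table of GRCm38.p6. All genes and all 9 arrays entered a single limma 3.58.1 fit (R 4.3.3; lmFit, contrasts.fit, eBayes) with no covariate and no filter, and Benjamini-Hochberg adjustment over all genes at 0.05. The number of arrays limits the precision. On simulated data for CHIR/XAV EpiSCs against ESCs the fit recovered 93.8% of 81 genes shifted by 0.5 and 100% of the 56 and 63 shifted by 1 and by 2, and 11 of its 206 calls were false. Values by array are given for genes called with at least a 2-fold change in any comparison, and for Nrp1 and Nrp2. The gene families and the lists were proposed with earlier results of these data known. Deviations of same-numbered arrays correlated at -0.07 to 0.24 over 9 pairs, and those of different-numbered arrays at -0.23 to 0.18. The highest, 0.24, was that of ESC replicate 3 with FGF2/activin replicate 3. As same-numbered arrays did not deviate together in general, numbers were not taken as pairs. Alternatives were another probe set rule, removal of the dimmest 40%, trended and robust variances, 2 groups alone, 3 scalings, array weights, the replicate block, each array left out, and a treat test against 1.5-fold.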

Additional observations from a re-analysis of the deposited data

Results flagged for a closer look

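For 7 of the 52 genes the EpiSC cultures departed from the same ESC arrays in opposite directions, with both changes and the difference between them past the threshold (limma, adjusted p under 0.05), as were 3.22% of all genes. The difference, CHIR/XAV minus FGF2/activin, was -3.37 for Sema3c, -2.05 for Nrp2, -1.46 for Epha2 and -0.62 for Efna4, which were lower in CHIR/XAV EpiSCs. It was 1.11 for Sema4a, 1.07 for Sema4d and 0.88 for Epha7, which were higher in CHIR/XAV EpiSCs. In each of these genes the 3 arrays of one EpiSC group lay above and the 3 of the other below all 3 ESC arrays. Since the genes were picked by opposite calls, this separation is largely implied and adds no support. Its share over all genes was not counted. Sema4d showed this on the brighter of its probe sets, and the call of Epha7 against ESCs in CHIR/XAV was lost after centring on the median gene.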

How the results depend on the processing

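All 33 changes of 2-fold or more kept direction and call in each of the 19 alternatives, except Sema4a between the EpiSC groups, which the filter on dim genes leaves out. No called change of the 52 genes reversed. Of 110 called changes 21 lost their call when some array was left out and 19 under some scaling, all of them 0.345 or smaller in size, and the cause was not tested. Leaving out single arrays gave 22 to 24 higher and 10 to 12 lower in CHIR/XAV EpiSCs against ESCs. The counts were 24 to 28 and 13 to 14 in FGF2/activin EpiSCs against ESCs. In CHIR/XAV against FGF2/activin they were 11 to 16 and 12 to 17. Shares of all genes in those fits are not given here. The treat test against 1.5-fold, a stricter question by construction, called 10 higher and 4 lower, 14 and 1, and 4 and 7 in the same comparisons, and of all genes 6.81% and 4.43%, 9.03% and 4.64%, and 2.22% and 3.67%. Removing the dimmest 40% of genes left 35 of the 52. Then 10 instead of 16 were higher in CHIR/XAV than in FGF2/activin EpiSCs, beside 24.1% of all genes kept. In FGF2/activin EpiSCs against ESCs 8 instead of 14 were lower, beside 29.3% of all genes kept. With the replicate block the counts were 24 and 11, 28 and 14, and 14 and 16. The shares of all genes were then 24.7% and 22%, 27.6% and 33.6%, and 20.4% and 21%. Centring on the median gene gave 21 and 14, 24 and 17, and 14 and 19. Of all genes it called 20% and 37.2%, 24.2% and 45%, and 17.4% and 22.6%. Quantile normalization gave 26 and 11, 30 and 12, and 12 and 15. The shares of all genes under it were 25.4% and 20.7%, 26.6% and 25.4%, and 19.1% and 19.3%. Over all alternatives a call was gained 25 times, with a change counted once for each alternative in which it gained one. Changes of Ephb1, Ephb3 and Ephb6 were among these. Centring on the median over all probe sets, chosen after seeing the data, gave 24 and 10, 28 and 14, and 13 and 18. The shares of all genes were 25.8% and 19.8%, 30.8% and 25.1%, and 16.2% and 23.1%. Of all calls in FGF2/activin EpiSCs against ESCs, 45.3% were higher as deposited and 55.1% after that centring. Low signal limits the dim genes, for which no background level was known.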

Other observations

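Other guidance cues and receptors, 26 measured genes, went both ways: 5 were higher in CHIR/XAV EpiSCs and 7 lower, and 7 higher and 9 lower in FGF2/activin EpiSCs, against ESCs, numbers close to the shares of all genes (24.7% and 22.1%, then 27.8% and 33.5%). Ntn1, the netrin gene, averaged 5.12 ± 0.15 in CHIR/XAV EpiSCs and 5.02 ± 0.08 in FGF2/activin EpiSCs, against 8.67 ± 0.07 in ESCs (SD, n = 3 each). Unc5b, a netrin receptor gene, averaged 8.48 ± 0.05 in CHIR/XAV EpiSCs and 8.37 ± 0.09 in FGF2/activin EpiSCs, against 5.76 ± 0.08 in ESCs, opposite in direction to Ntn1 (limma, adjusted p = 5.96e-13 and 6.26e-13). The ligand gene Slit2 had changes of -2.51 and -3.11 against ESCs, while Slit3 had a change of 1.88 in FGF2/activin EpiSCs and of -2.08 in CHIR/XAV against FGF2/activin EpiSCs.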
